A study of Drosophila melanogaster with 24 samples.

Results

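The UDP-glycosyltransferase (Ugt) genes of Drosophila melanogaster were examined for chromatin binding by the bHLH-PAS partners CLOCK (CLK) and CYCLE (CYC), which together drive transcription in the fly circadian clock. Members were all protein-coding genes of the RefSeq annotation whose symbol begins with Ugt and a digit, which gave 35 of the 13922 such genes on the major chromosome arms and chromosome 4. Chromatin immunoprecipitation and sequencing with an antibody against GFP had been done in heads, testes and ovaries collected at ZT 10 h, and each protein in each tissue had 2 GFP libraries and 2 inputs. A replicate was made from 200 heads or 200 pairs of gonads. The labels name the protein and the tissue of each group, and they do not give genotype, strain, age, the sex of the flies that gave heads or the driver of the tagged protein. Each of the 6 deposited peak lists covers 1 protein in 1 tissue, so no value per replicate and no test between tissues was possible, and read depth is unknown.

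UDP-glycosyltransferases are enzymes of the endoplasmic reticulum membrane that join a sugar from a UDP-sugar to small fat-soluble molecules, which makes these more soluble and easier to excrete. In insects the sugar is mostly glucose, and the family acts on plant toxins, insecticides, pigments, odorants and hormones. Many members arose by tandem duplication, so related genes lie side by side. Circadian clocks are known to time detoxification in flies, in part through PAR-domain protein 1 (Pdp1), a direct target of CLK and CYC.

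The members lay on 2L (11 genes), 2R (5), 3L (2) and 3R (17), and there was no member on X or 4. With a gap of at most 10 kb between neighbours, 22 of the 35 formed 6 tandem clusters and 13 stood alone, which gave 19 separate loci. On 2L the first cluster held Ugt37C2, Ugt37E1 and Ugt37D1 in 7.37 kb, and the second held Ugt36F1, Ugt36D1 and Ugt36E1 in 9.72 kb. Ugt49B1 and Ugt49C1 formed the 2R cluster of 4.9 kb. On 3R the largest cluster spanned 26.9 kb (11151026 to 11177910, dm6) with 9 members, in the order Ugt302K1, Ugt302E1, Ugt302C1, Ugt35E1, Ugt35E2, Ugt35B1, Ugt35A1, Ugt304A1 and Ugt303A1. CG4757 was the only other protein-coding gene within its span. The remaining 3R clusters were Ugt37A2 with Ugt37A3 and Ugt303B3 with Ugt303B1 and Ugt303B2. All members but Ugt50B3 (52870 bp) were between 1564 and 3953 bp long, and the median was 1916 bp against 2163 bp over all genes.

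A peak was counted for a gene when its midpoint lay in the gene or within 1 kb of it. In all, 22 of 7810 peaks lay at Ugt genes, 14 of CLK and 8 of CYC, and 17 of the 22 had their midpoint inside a member. They gave 17 of 35 members a peak in at least 1 list (48.6%), against 38.9% of all genes, and fell in 9 of 19 loci. Since 10 of the 22 peaks reached a pair of neighbouring members each, members are not independent counts.

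**Figure D1:**
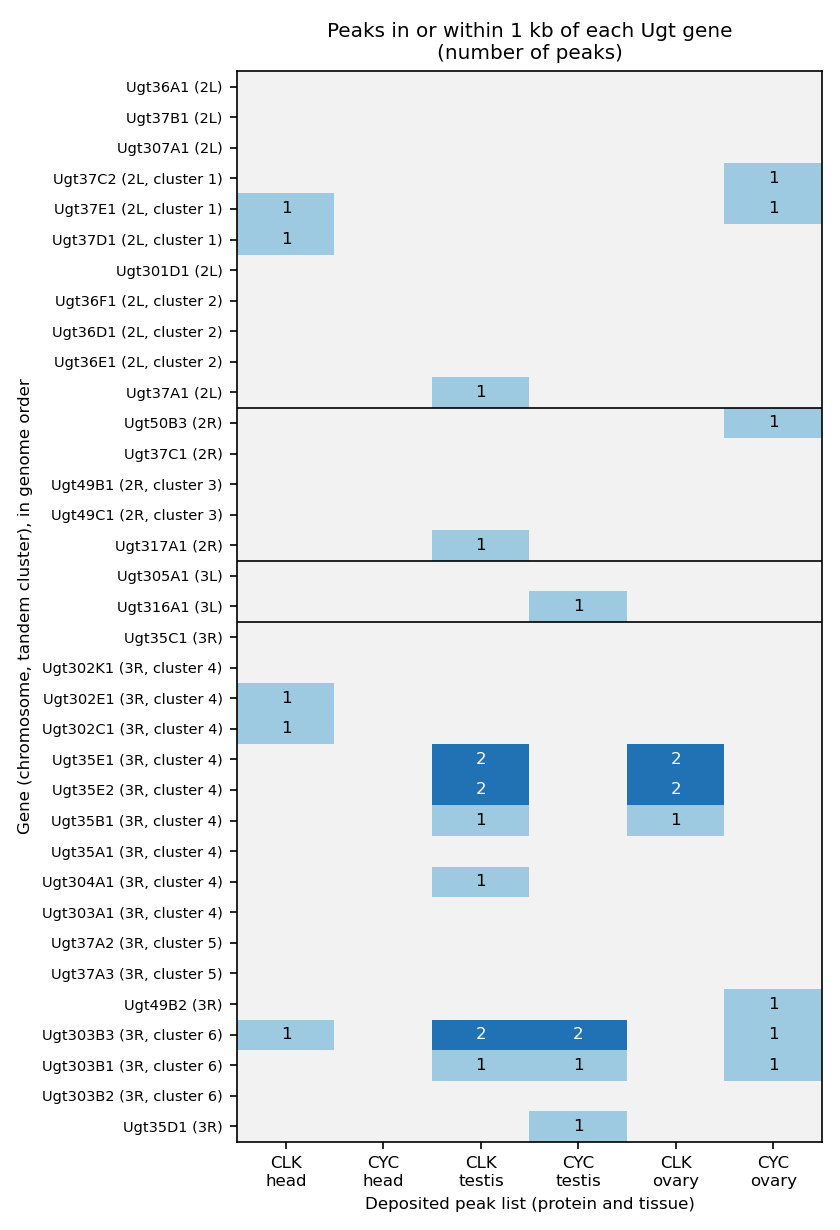
Number of peaks in or within 1 kb of each of the 35 Ugt genes (vertical axis, genome order, with chromosome and tandem cluster) in each of the 6 lists (horizontal axis). Ugt303B3 had peaks in 4 lists, CYC of head had none at any member, and clusters 2, 3 and 5 were empty throughout.

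By protein and tissue, the share of members with a peak ranged from 0 to 4.95 times that of all genes. In head, CLK peaks lay at 5 members (14.3%, 95% exact interval 4.81 to 30.3%), against 9.07% of all genes. For CYC in head the count was 0 of 35 (0 to 10.0%), and 4.13% of all genes had such a peak. In testis, CLK peaks lay at 8 members (22.9%, 10.4 to 40.1%), against 17.8% of all genes. CYC of testis had peaks at 4 members (11.4%, 3.2 to 26.7%), against 10.1%. In ovary, CLK peaks lay at 3 members (8.57%, 1.8 to 23.1%), against 1.73% of all genes, but these 3 were neighbours in 1 locus. CYC of ovary reached 6 members (17.1%, 6.56 to 33.6%), against 11.1%. Counted as loci, CLK was at 3 in head, 4 in testis and 1 in ovary, and CYC at 0, 3 and 4. The intervals cover counting error only and treat members as independent.

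**Figure D2:**
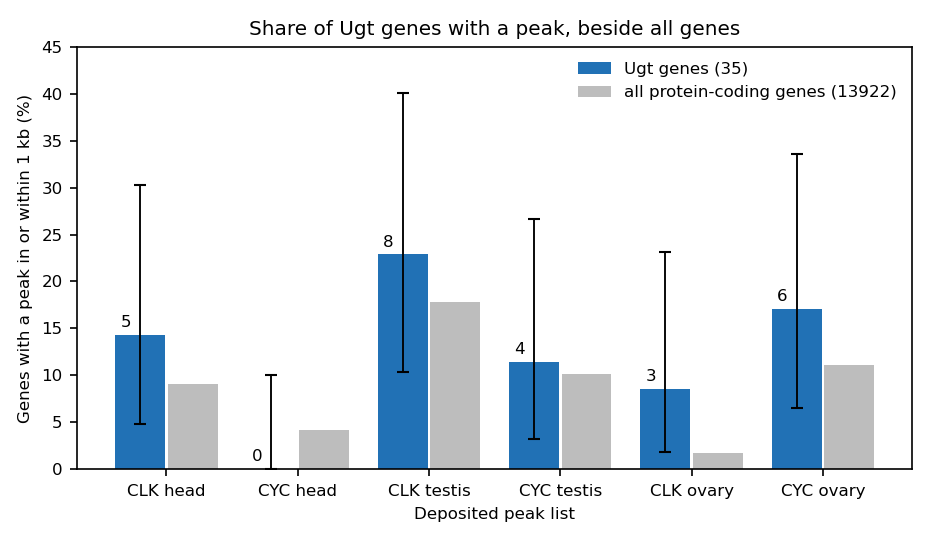
Share of genes with a peak in or within 1 kb (vertical axis, percent) for the 35 Ugt genes (blue, count of members beside each bar, exact 95% interval as the error bar) and for all 13922 protein-coding genes (grey) in each list. The intervals treat members as independent, though neighbours share peaks, so they are not a test against the share of all genes. The 3 members with a CLK peak of ovary are neighbours in 1 locus.

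Ugt303B3, on 3R from 23532945 to 23534767, had peaks in more lists than any other member, namely CLK of head, CLK of testis, CYC of testis and CYC of ovary. Genes with peaks in at least 4 lists made up 0.682% of all genes. The gene opens a row of 3 Ugt303B genes with gaps of 132 and 282 bp between them. The peaks fell on 2 separate places inside the gene. At the first, CLK of head was called from 23533243 to 23533558 (315 bp), which lay wholly within the CYC peak of testis from 23533229 to 23533577 (348 bp). The midpoints of these peaks were 3 bp apart, about 25.0% along the gene from its lower-coordinate end. The CLK peak of testis there was far broader, from 23533200 to 23534264 (1064 bp), and held both of the others whole.

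The second place was at the opposite end of Ugt303B3, at 93.0 to 93.5% of its length. There CLK of testis spanned 23534487 to 23534794 (307 bp), CYC of testis 23534499 to 23534801 (302 bp) and CYC of ovary 23534514 to 23534775 (261 bp). The 3 midpoints lay within 10 bp of each other, across both proteins and both gonads. This place also lay 250 to 260 bp from the lower end of Ugt303B1, which therefore counted for the same 3 lists. Ugt303B2, the next gene, had no peak within 1 kb in any list, and its nearest were 2037 bp away for CYC of testis and 2349 bp for CYC of ovary. Over the whole genome, 1.51% of 6824 merged sites on the main chromosomes were called in at least 3 lists. Of the 17 merged sites at members, 14 were in 1 list, 1 in 2 and 2 in 3, the last being both places in Ugt303B3. This gene was singled out for its number of lists, and the difference was not tested.

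**Figure D3:**
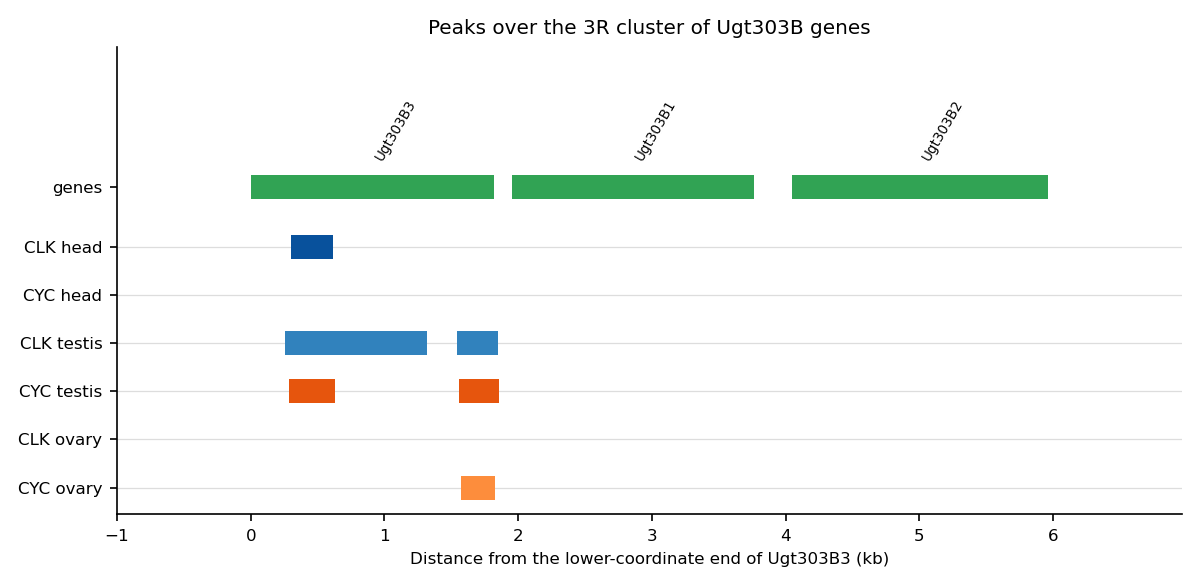
Map of the Ugt303B genes (green) and the peaks of the 6 lists (coloured bars, to scale), by distance in kb from the lower-coordinate end of Ugt303B3. Peaks stack at 2 places in Ugt303B3, with CLK of head and both testis lists at the first and both testis lists and CYC of ovary at the second, while Ugt303B1 and Ugt303B2 hold none inside.

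CLK and CYC peaks met by at least 1 bp at Ugt genes in testis alone, and only at Ugt303B3. There 2 of the 8 CLK peaks met a CYC peak, and 8.91% of the whole CLK list did. Of the 4 CYC peaks of testis at members, 2 met a CLK peak, against 14.3% of that list. In head none of the 3 CLK peaks at members met a CYC peak, where 11.5% of the list did, and in ovary none of 3 did, where 31.3% did. Peaks of both proteins in 1 tissue were thus found at 2 members, Ugt303B3 and Ugt303B1, in testis (5.71%, against 3.68% of all genes) and at 0 of 35 in head and in ovary (1.36% and 0.783% of all genes). The head values could only be 0, since the closest CYC peak of head was 12816 bp from a member. With shares this small, 0 of 35 shows no difference between tissues.

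Ugt35E1, Ugt35E2 and Ugt35B1 in the large 3R cluster carried CLK peaks of both gonads and no CYC peak. Ugt35B1, long known as Ugt35b, was described as an antenna-enriched enzyme gene. In testis, CLK was called over Ugt35E1 from 11164520 to 11165617 (1097 bp), over Ugt35E2 from 11166467 to 11167616 (1149 bp) and in Ugt35B1 from 11168541 to 11168977 (436 bp). The first of these peaks was centred 645 bp from the lower end of its 1652 bp gene, and the second 864 bp into a gene of 1805 bp. A narrow CLK peak of testis lay further on in Ugt304A1, from 11173919 to 11174118 (199 bp), at the lowest width in that list. Ugt35A1, between Ugt35B1 and Ugt304A1, had no peak within 1 kb, and its nearest CLK peak of testis was 1354 bp away.

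In ovary, 1 of the 3 CLK peaks of this stretch met a CLK peak of testis in part and the others met none. The share of the whole CLK ovary list that meets a CLK peak of testis was not counted. Whether 1 of 3 differs from it is therefore unknown. The peak from 11163783 to 11163992 (209 bp) had its midpoint 536 bp before Ugt35E1 and a gap of 528 bp to the nearest testis peak. It also lay within 1 kb of CG4757. The peak from 11165521 to 11165722 (201 bp) shared 96 bp with the testis peak of Ugt35E1. The peak from 11167879 to 11168090 (211 bp) was centred 3 bp past Ugt35E2 and 519 bp before Ugt35B1, with gaps of 263 and 451 bp to the testis peaks on either side. All 3 were among the narrower peaks of their list, at ranks 302, 307 and 336 by width of 351. These 3 made up 0.855% of the CLK ovary list, the highest share of any list at Ugt genes. That share rests on 1 locus, and the list, with 351 peaks, is the smallest of the 6. From Ugt35E1 the nearest CYC peaks were 21227 bp away in ovary, 27780 bp in testis and 45493 bp in head, where the medians over all genes were 23188, 22173 and 90117 bp.

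**Figure D4:**
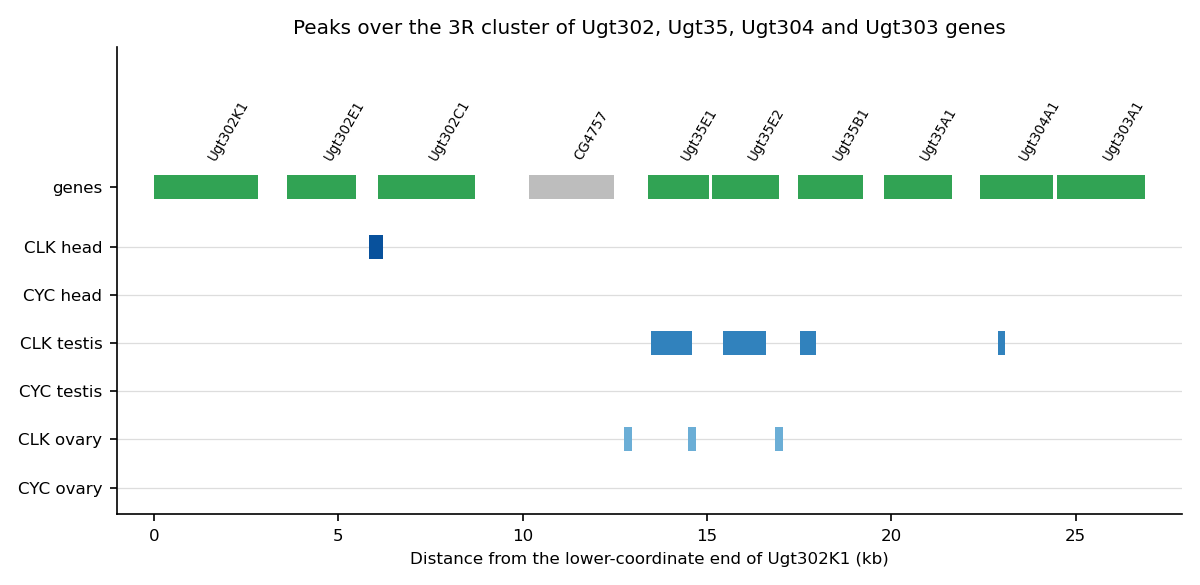
Map of the large 3R cluster, with Ugt genes in green, CG4757 in grey and the peaks of the 6 lists as coloured bars to scale, by distance in kb from the lower-coordinate end of Ugt302K1. CLK peaks of testis cover much of Ugt35E1 and Ugt35E2. Of the 3 narrow CLK peaks of ovary, 1 overlaps the testis peak of Ugt35E1 and the others are centred between genes. The CLK peak of head is centred just before Ugt302C1 and reaches into it, and the 3 CYC rows are empty.

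The testis CLK peaks at Ugt genes included some of the widest of their list. Peaks of 1000 bp or more made up 1.16% of the CLK testis list, 29 of 2491, and 3 of the 8 at Ugt genes were of that size, those of Ugt35E2, Ugt35E1 and Ugt303B3 at ranks 22, 26 and 28. This limit was chosen after the widths were seen. The other 5 CLK peaks of testis were 199 to 482 bp wide, and 7 of the 8 exceeded the list's median of 275 bp. All 3 CLK peaks of head, at 315, 391 and 449 bp, were above their median of 285 bp. By contrast, none of the 3 CLK peaks of ovary (201 to 211 bp, median of the list 295 bp) and none of the 4 CYC peaks of ovary (241 to 310 bp, median 312 bp) was. CYC peaks of testis at members were 258 to 348 bp wide, with 3 of 4 above the median of 272 bp. The lists give no enrichment or q-value, so width is not a measure of occupancy.

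**Figure D5:**
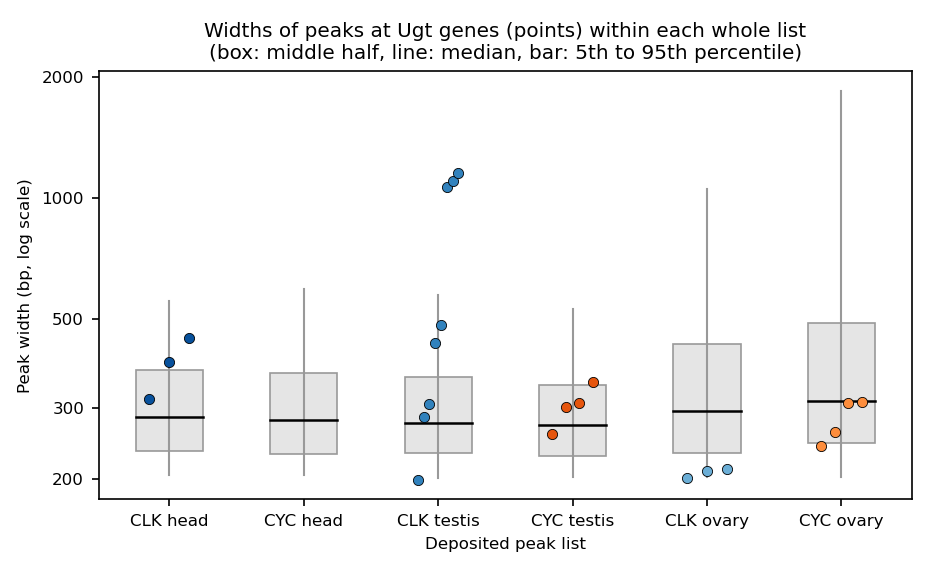
Width in bp (log scale) of each peak at a Ugt gene (points) over the widths of the whole list (grey box for the middle 50%, black line for the median, bar from the 5th to the 95th percentile), by list. The 3 CLK peaks of testis at 1064 to 1149 bp stand above the bar of their list, and the CLK peaks of ovary at 201 to 211 bp lie at the lower end of theirs.

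The CLK peaks of head lay between or at the ends of tandem genes, apart from the peak inside Ugt303B3. In the Ugt37 cluster of 2L, CLK of head was called from 16798680 to 16799129 (449 bp), with its midpoint 121 bp before Ugt37D1 and 631 bp past Ugt37E1. In the large 3R cluster, it was called from 11156859 to 11157250 (391 bp), with its midpoint 44 bp before Ugt302C1 and 541 bp past Ugt302E1. By their midpoints both peaks thus lay in the gap between neighbouring members, which was 751 bp long in the first case and 584 bp in the second. Strand was not in the annotation used here, so starts and ends of transcription were not told apart.

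CYC of ovary was called once in the same Ugt37 cluster, from 16796544 to 16796854 (310 bp), with its midpoint 104 bp inside Ugt37E1 and 690 bp from Ugt37C2. It lay 1826 bp from the CLK peak of head in that cluster. The cluster had no testis peak within 1 kb, but a CYC peak of testis from 16792864 to 16793241 lay in the neighbouring gene CG17928, 1159 bp from Ugt37C2.

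Of the 13 members outside clusters, 6 had 1 peak each, in 1 list each, where 38.9% of all genes had a peak in any list. Ugt37A1 on 2L had a CLK peak of testis from 20373641 to 20374123 (482 bp), at 86.9% of the gene's length. Ugt317A1 on 2R, formerly Ugt58Fa, had a CLK peak of testis from 22642074 to 22642359 (285 bp), which also lay within 1 kb of the ribosomal protein gene RpS24. In Ugt316A1 on 3L a CYC peak of testis spanned 19061225 to 19061483 (258 bp) near the middle of the gene, with no other protein-coding gene within 1 kb. These single sites of testis were therefore called for 1 protein each.

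Ugt35D1, near the far end of 3R, had a CYC peak of testis from 31393811 to 31394119 (308 bp), 383 bp inside the gene and within 1 kb of CG31204. It lies apart from Ugt35E1, Ugt35E2 and Ugt35B1, which had CLK peaks and no CYC peak. Ugt49B2 on 3R had a CYC peak of ovary from 21400044 to 21400352 (308 bp), 456 bp outside the gene. Ugt50B3, whose subfamily is conserved across insects, had a CYC peak of ovary from 5506075 to 5506316 (241 bp) on 2R. That peak lay 9521 bp into a gene of 52870 bp and inside TpnC4, a troponin C gene nested at the same position, so it cannot be given to either gene.

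The other 18 members had no peak within reach in any list. These were Ugt36A1, Ugt37B1, Ugt307A1, Ugt301D1, Ugt37C1, Ugt305A1 and Ugt35C1 among the single genes. Among the clustered genes they were Ugt36F1, Ugt36D1, Ugt36E1, Ugt49B1, Ugt49C1, Ugt302K1, Ugt35A1, Ugt303A1, Ugt37A2, Ugt37A3 and Ugt303B2. Ugt36A1 was first described as Dorothy (Dot) from its expression in blood cells, Ugt36E1 has been tied to odour detection in the antenna, and Ugt35C1, formerly Ugt86Dd, has been tied to nicotine resistance in flies. The nearest peak of any list was 4577 bp from Ugt36A1 (CYC of testis), 9417 bp from Ugt36E1 (CYC of ovary) and 8315 bp from Ugt35C1 (CYC of testis).

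The window of 1 kb left some sites narrowly in and others narrowly out. Just inside were Ugt35E1 with the CLK testis peak of Ugt35E2 (967 bp), Ugt35E2 with that of Ugt35B1 (778 bp) and Ugt37C2 with the CYC ovary peak of Ugt37E1 (690 bp). Just outside were Ugt35E2 with the CLK testis peak of Ugt35E1 (1109 bp), Ugt37C2 with CYC of testis (1159 bp) and Ugt303B1 with the broad CLK peak of testis in Ugt303B3 (1168 bp). Of the members without a peak, Ugt37B1 was the closest, 1319 bp from a CLK peak of ovary at 2L 6227996 to 6228326. At Ugt49B1 a CYC peak of testis lay 1478 bp outside, in CG44245.

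Distances to the nearest peak put the members beside all genes without a window. The median distance from a member was 18504 bp for CLK of head, against 35470 bp over all genes, and 8555 against 10461 bp for CLK of testis. For CYC it was longer than over all genes in head, at 130527 against 90117 bp, and in testis, at 26633 against 22173 bp. In ovary it was 226624 against 184747 bp for CLK and 21227 against 23188 bp for CYC. For CYC of head, the closest member was Ugt37C1, 12816 bp from a peak, and the farthest was Ugt37C2 at 705068 bp. Clustered members share their distances, so these medians were not tested.

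Other detoxification families were counted in the same way. The 85 cytochrome P450 genes (symbol Cyp and a digit), which oxidise many of the same compounds, had a peak in any list in 32 cases (37.6%). The 35 glutathione S-transferase genes, which join glutathione to them, had one in 12 cases (34.3%), and both shares stand beside 38.9% of all genes and 48.6% of Ugt genes. In head, CLK was at 3 of 85 P450 genes and 4 of 35 glutathione S-transferase genes (9.07% of all genes), and CYC at 6 and 3 (4.13%). The testis lists gave 15 and 5 for CLK (17.8%) and 8 and 0 for CYC (10.1%). The ovary lists gave 1 and 0 for CLK (1.73%) and 10 and 4 for CYC (11.1%). Neither family had a gene with peaks of both proteins in head or ovary, as with the Ugt genes, and in testis 3 of 85 P450 genes and 0 of 35 glutathione S-transferase genes had them (3.68% of all genes). None of these differences was tested.

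Genes that make or carry UDP-sugars had peaks in 6 of 11 cases, each in 1 list, against 38.9% of all genes in any list. Their median length was 3880 bp, against 2163 bp over all genes. Galt, which makes UDP-galactose, had a CLK peak of head at 2L 6667627 to 6668080 (453 bp), and Pgm1, a phosphoglucomutase gene, had a CYC peak of head 251 bp away. UGP, which makes UDP-glucose, the sugar donor of the family, had a CLK peak of testis at 3L 9352730 to 9352938 (208 bp), as did frc, a UDP-sugar transporter gene (223 bp). In ovary CYC was called in mmy, of UDP-N-acetylglucosamine synthesis (337 bp), and 597 bp from Gfat1, of the hexosamine pathway (1084 bp). By list, CLK of testis and CYC of ovary were each at 2 of the 11, against 17.8% and 11.1% of all genes. CLK and CYC of head were each at 1 of 11, against 9.07% and 4.13%. Uggt and GlcT, which transfer glucose to misfolded glycoproteins and to ceramide, had CLK peaks of head of 257 and 399 bp. A CLK peak of head was at 9.07% of all genes, and the one at GlcT was centred 932 bp outside the gene. Uggt also had a CYC peak of testis, centred 927 bp outside the gene. No peak lay at sgl, Galk, Ugalt, Gfat2 or nst. Of the 4 sulfotransferase genes, St3 had a CYC peak of testis (429 bp), as did 10.1% of all genes. St1, St2 and St4 had no peak in any list, where 38.9% of all genes had one.

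The 9 genes listed as regulators of detoxification include genes with other roles, such as the hormone receptor gene gce. Peaks lay at 8 of the 9, against 38.9% of all genes. The median gene length of the group was 6004 bp against 2163 bp over all genes, and longer genes have more room for a peak. In head, CLK was called at cnc, maf-S, ss and Pdp1 and CYC at cnc, Hr96, ss and Pdp1. Peaks of both proteins met in cnc, the fly counterpart of Nrf2, with CLK at 3R 23201062 to 23201355 and CYC at 23201172 to 23201478. They met as well at ss, a bHLH-PAS gene, with CLK at 3R 16403629 to 16403986 and CYC at 16403768 to 16403989, and at Pdp1. The CLK peak near maf-S, the partner of cnc, was 654 bp wide, and the CYC peak near the nuclear receptor gene Hr96 was 574 bp wide. In testis, cnc and its inhibitor Keap1 each had peaks of both proteins that did not meet. In ovary, CLK was called in cnc and Pdp1 and CYC in Pdp1, in gce, a juvenile hormone receptor gene, and 787 bp from tgo, a bHLH-PAS gene. Met was without a peak. In head the CLK and CYC counts were 4 of 9 each, against 9.07% and 4.13% of all genes. Both proteins were at cnc, ss and Pdp1 in head, as at 1.36% of all genes. These are the longest genes of the group, at 41132, 29257 and 55912 bp, and Pdp1 was a known target beforehand. In testis the CLK and CYC counts were 2 of 9 each, against 17.8% and 10.1%, and in ovary 2 and 3 of 9, against 1.73% and 11.1%.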

How the data were processed

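Per the labels' protocols, chromatin was sheared to 100 to 500 bp and 5% was kept as input. Reads were processed on dm6 with fastp, Bowtie2, Picard and MACS2 among other tools, per the submitters' processing notes. Versions, thresholds and the handling of replicates are not given in the sources used here. Peaks were deposited by the authors as 6 lists with 3 columns each (chromosome, start and end), which were matched to tissues by the initial in each list's name. Positions are as deposited, and starts may be counted from 0 or 1.

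Genes came from the RefSeq table of Release 6 plus ISO1 MT, the assembly that dm6 names, which holds no strand or exons. No genome or promoter sequence was used, so motifs and identity between copies were not analysed here, and reads of near-identical copies may be misplaced. Overlap meant at least 1 bp. Intervals are exact Clopper-Pearson intervals. Counts were made with Python 3.11.15, pandas 2.3.3 and NumPy 2.4.6 and tested on simulated peaks. Every member with a peak is named, and 26 pathway genes from a fixed list are reported (another one is not reported here), of which 1 (Ugalt, listed as Csat) was matched by synonym. The members and lists were chosen with earlier results of these data known. No test across genes was run, since each list is a single value.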

Additional observations from a re-analysis of the deposited data

How the results depend on the processing

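Of 84 values recomputed under alternative settings, 68 lay within 1.5 times the reported count and 16 did not. The 68 include every alternative for results whose reported count was 0, where a ratio has no meaning. These were CYC of head, both proteins in head and in ovary, and CLK peaks meeting CYC in head and in ovary, and all stayed at 0. All 16 that moved had a reported count above 0, so the 68 overstate how stable the counts were. With a window of 3 kb, members with a peak rose to 8 for CLK of head, 8 for CYC of testis and 5 for CLK of ovary, and members with both proteins in testis to 4 (13.4%, 17.5%, 2.86% and 7.6% of all genes). With 500 bp, CLK of head had 3 (7.57%). With midpoints inside the gene, the counts were 1 for CLK of head, 1 for CLK of ovary, 3 for CYC of ovary, 1 for both proteins in testis and 11 for any list (5.23%, 1.24%, 6.97%, 2.47% and 26.6% of all genes), and for CLK of head 1 of 35 is below the share of all genes, unlike 5 of 35 within 1 kb. Counting each peak for the closest gene gave 3 for CLK of head and 1 for both proteins in testis (6.49% and 2.73%). In the widest 50% of peaks, CLK of ovary and CYC of ovary each had 0 (0.898% and 5.09%). CLK peaks of testis meeting CYC fell to 1 with reciprocal overlap of 50%, since the shared 348 bp is 32.7% of the broad CLK peak of Ugt303B3. They fell to 1 with midpoints within 200 bp too, since that broad peak is centred 329 bp from its CYC peak. CYC of head had 0 members under all 7 alternatives. The 6 clusters were the same in number with gaps of 5 and 20 kb. No paired analysis was possible because the replicates were deposited as 1 list per protein and tissue, and for the same reason no replicate could be left out. Depth is unknown, so a missing peak is not absence of binding.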
